A study of Mus musculus with 29 samples.

Results

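The genes described here are 35 that have repeatedly been reported to change in hematopoietic stem cells (HSCs) of old mice. They were taken by symbol from the 55376 genes counted in each RNA-seq library, and all 35 were found and passed the filter on low counts, as did 33690 genes in all. HSCs are the rare bone marrow cells from which every blood lineage is renewed. With age their number rises while their output shifts away from lymphocytes, and old HSCs switch on a recurrent set of adhesion molecules, receptors and detoxifying enzymes that is often used to tell old from young HSCs. Gadd45b encodes a stress-induced protein that has been linked to active removal of DNA methylation, and the study asked whether its loss makes young HSCs resemble old ones and whether the knockouts still age.

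The 19 libraries come from HSCs of female mice, as the labels have it, in 4 groups: 4 of young WT mice (YWT), 4 of old WT mice (OWT), 4 of young mice with the genotype Gadd45KO (YKO) and 7 of old Gadd45KO mice (OKO). The knockout is the Jackson Laboratory line bred and aged in the authors' own facility, it is carried in all cells rather than in HSCs alone, no agent was given, and the labels name the ages only as young and old. Counts of Y-linked genes were present in 7 of the 19 libraries, 2 of YWT, 1 of OWT, 2 of YKO and 2 of OKO, which does not go with the female label, and the methods state that both sexes were used. Library totals ran from 22197555 to 77970627 reads counted on genes, with a median of 57562473. The title of 8 libraries, the 4 OWT and OKO4 to OKO7, starts with IB15, and that of the other 11 does not, so age in WT HSCs and this prefix cannot be told apart. Nothing in the labels says that each library is 1 animal, so the p-values measure the spread between these libraries.

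The libraries were checked before the members were compared. The targeted gene, Gadd45b, stood at 9.12, 17.5, 8.17 and 7.34 CPM in YWT1 to YWT4, at 10.1, 10.4, 15.5 and 10.2 in OWT, at 12.7, 14.3, 5.98 and 5.14 in the libraries labelled YKO and between 2.84 and 6.94 in OKO. YWT and the libraries labelled YKO overlapped in this gene, and the latter are taken by their label throughout. The summed level of 13 HSC genes (Kit, Ly6a, Hlf, Mecom and others) was between 2905 and 6116 CPM in every library. Of 10 endothelial genes, Cdh5 was at or under 1.97 CPM in all 19 libraries, while others, such as Tie1, at 118 CPM or more, were counted at higher levels in all of them. The granulocyte genes (9) summed to 211 to 404 CPM in YWT and 609 to 897 in OWT, without overlap, and to 50.6 to 291 in YKO and 203 to 607 in OKO, and their part in the rises was not tested. The summed level of 8 B cell genes was 220 to 673 CPM in YWT, 64.1 to 208 in OWT, 196 to 1515 in YKO and 27.5 to 197 in OKO, with the highest values in YKO2 (1515) and YKO1 (836), although the study's HSC gate leaves out B220-positive cells. YKO1 and YKO2 also had the highest summed level of 8 T cell genes, 146 and 96.7 CPM, beside at most 47.5 in the other libraries. The 7 plasma cell genes summed to 1325 to 26936 CPM in YWT and 436 to 2910 in OWT. They summed to 755 to 13732 in YKO and 124 to 4680 in OKO. The highest of these sums were in YWT2 (26936), YKO2 (13732) and YKO1 (8858), and Ighm alone held 11.4% of the counts of YWT2. In bulk RNA, fewer cells of a type and less RNA per cell cannot be told apart.

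All 35 members had a higher mean in OWT than in YWT on the log2 scale of the fit, and 34 of 35 had a higher mean in OKO than in YKO, with Mt1 the exception. With upper-quartile scaling or DESeq2 the first count is 34, because Mmrn1 then has -0.02 or -0.01. The median log2 fold change of the members was 1.28 in OWT vs YWT, beside -0.05 over all 33690 genes tested, and 1.36 in OKO vs YKO, beside 0.23. Upper-quartile scaling of the same genes moved the median of all genes in OKO vs YKO to 0.435 and that of the members to 1.48. A gene was called when the Benjamini-Hochberg adjusted p of the edgeR quasi-likelihood test was under 0.05 and the fold change over 1.5. By that rule 16 members rose in OKO vs YKO, where 0.597% of all tested genes did, and 1 member, Plscr2, rose in OWT vs YWT, where it was the 1 gene called of 33690 (0.00297%). No member fell in either. The members were chosen with earlier results of these data known, so setting them beside all genes is a description.

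**Figure D1:**
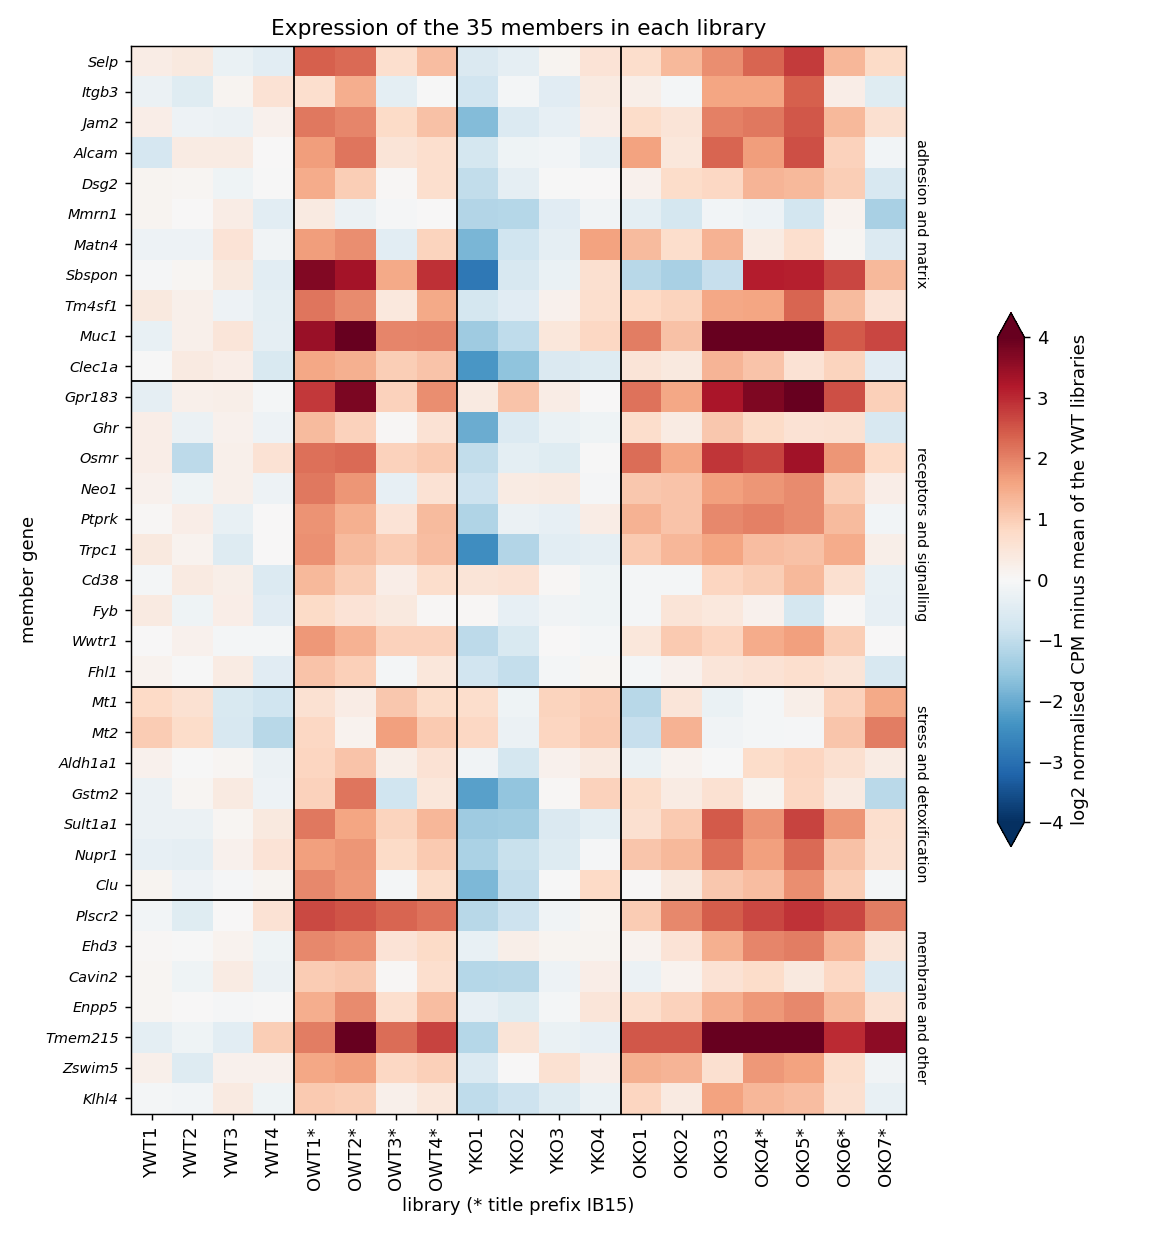
Log2 normalised CPM of each member (rows, by role) in each of the 19 libraries (columns, an asterisk marks the title prefix IB15), minus the mean of the 4 YWT libraries, with red for higher and blue for lower and the scale ending at 4 in both directions. OWT1, OWT2 and OWT4 are red in at least 34 of 35 rows and OWT3 in 28, the OKO libraries in 19 (OKO7) to 35 (OKO6), YKO1 and YKO2 are mostly blue, and Sbspon is strongly red in the IB15 libraries and blue or near white in most others.

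More members passed the test in OKO vs YKO than in OWT vs YWT, although the medians were close, and the reason was not tested. The first compares 7 libraries with 4 and the second 4 with 4. Against the same YKO libraries, the 4 OKO libraries with the prefix gave 18 called members, with 0.815% of all genes called in either direction. The 3 without it gave 21, with 17.9%. At an unadjusted p under 0.05, 29 of 35 members were higher in OWT vs YWT (2.64% of all genes) and 27 of 35 in OKO vs YKO (7.89%). The 4 OWT values all exceeded the 4 YWT values for 20 members (2.24% of all genes), and the 7 OKO values exceeded the 4 YKO values for 13 members (1.12%). Those 13 were apart in both comparisons, which holds for 0.306% of all genes. The 2 comparisons share no library, and over the 35 genes their log2 fold changes had a Pearson r of 0.85 and a Spearman rho of 0.84, a description over genes that are not independent replicates and that were chosen with these results known. The test of the difference between the age effects, the genotype by age interaction, passed for 0 members in edgeR and 0 in DESeq2. By DESeq2 4 members had an unadjusted p under 0.05, as did 3313 of 52612 genes. In edgeR the interaction passed for 0 of all genes (0%). Sult1a1 (1.14, 95% interval 0.02 to 2.26) and Klhl4 (0.87, 0.00 to 1.73) were the 2 members with an unadjusted p under 0.05 there, a share of 2 in 35 beside 4.62% of all genes.

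**Figure D2:**
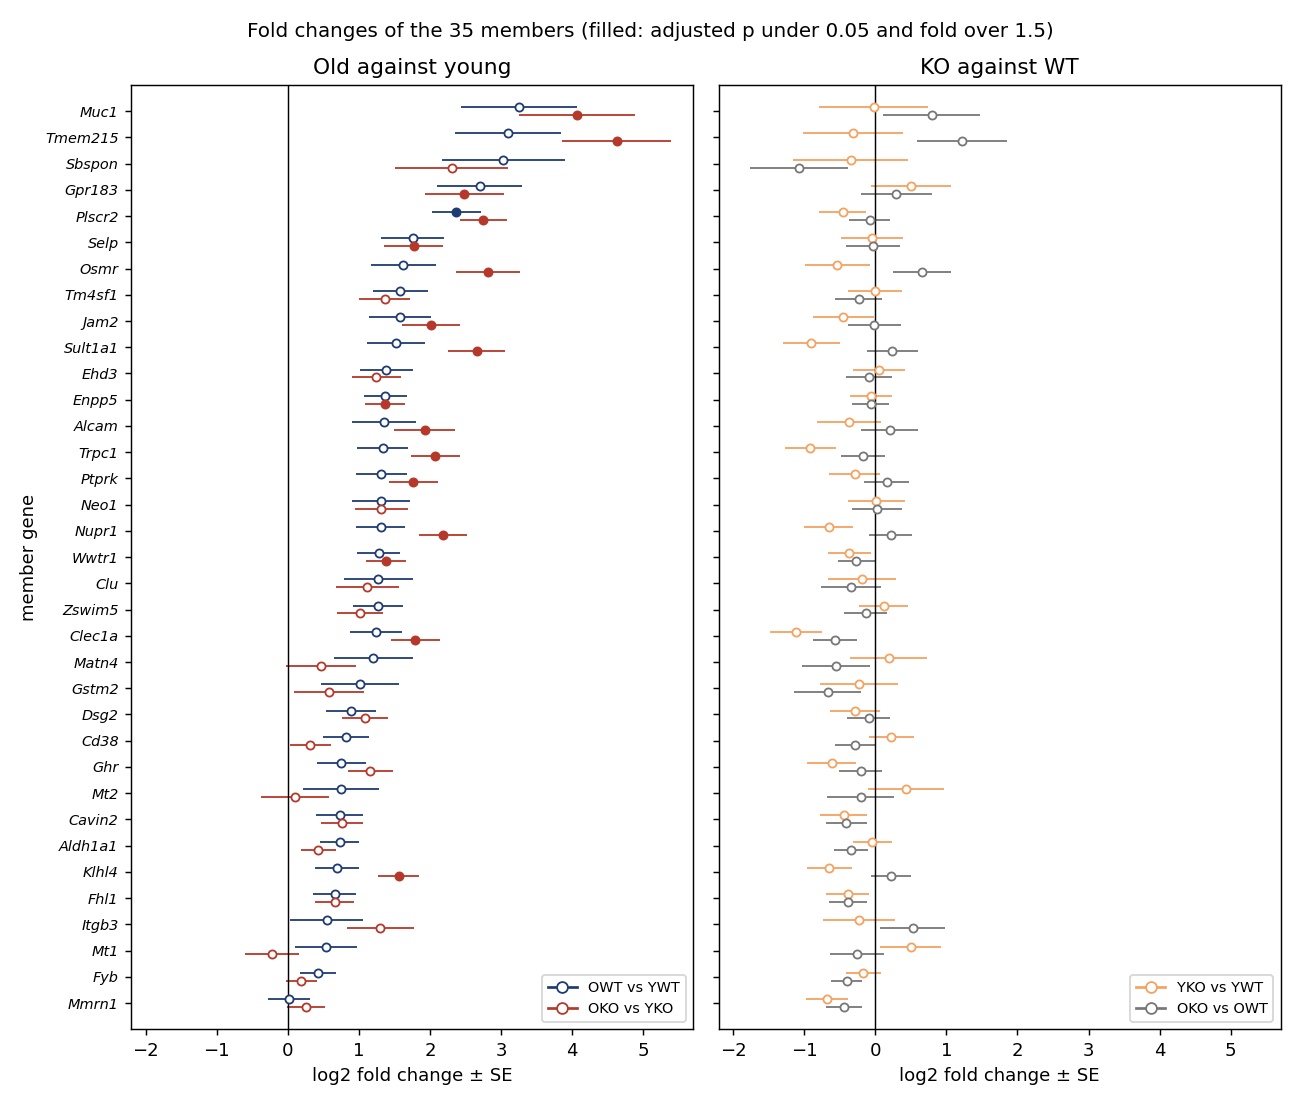
Log2 fold change with its standard error for each member, in old against young (left) and in KO against WT (right), in the edgeR fit of all 19 libraries. Filled points passed an adjusted p of 0.05 and a fold of 1.5. On the left 34 of 35 pairs of points lie above 0, on the right the points of YKO vs YWT lie mostly below it and none is filled.

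The number of members called in OKO vs YKO depended on YKO1 and YKO2, as did the number of all genes called. It was 16 with all libraries (1.29% of all genes called), 7 without YKO1 (0.284%) and 10 without YKO2 (0.635%). It was 1 (Plscr2) with both left out, a choice made after the data were seen. The members' median log2 fold change was then 1.14, beside 0.59 for all genes, with 30 of 35 higher and 0.0542% of all genes called. With the B cell level as a covariate, also added later, 3 members were called (Plscr2, Tmem215 and Sult1a1) at a median of 1.10, beside 0.03 for all genes, with 0.386% of all genes called. That level differed strongly with age, so this covariate cannot separate B cells from age. DESeq2 called 26 members in OKO vs YKO, with 4.04% of all genes called, and 12 in OWT vs YWT, with 0.251%. With the 3 OKO libraries that have no prefix, as YKO has none, all 16 calls remained among 21 members called. Of all genes 17.9% were called there in either direction, with 2193 of 35140 called higher. In all 3, 21 members lay above every YKO library, as 14.3% of all genes did. With the 4 OKO libraries of the prefix IB15 against YKO, the same 16 were called among 18, with 0.815% of all genes called (154 of 29957 higher). The shares of all genes called in this paragraph are in either direction, while every member called was higher.

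Within OWT, YKO and OKO, the same libraries were the high or the low ones in most members. The mean log2 deviation of the 35 members from the YWT mean was within -0.10 to 0.06 in the 4 YWT libraries. It was 1.68 in OWT1, 1.71 in OWT2, 0.61 in OWT3 and 1.02 in OWT4, and in OKO1 to OKO7 it was 0.63, 0.73, 1.41, 1.59, 1.84, 1.16 and 0.35. In the libraries labelled YKO it was -0.98, -0.51, -0.07 and 0.21. The group means were 1.25 ± 0.54 in OWT (SD, n = 4), 1.10 ± 0.55 in OKO (n = 7) and -0.34 ± 0.52 in YKO (n = 4). Every old library was thus above every young one, the closest being OKO7 at 0.35 and YKO4 at 0.21. OWT3 held the lowest OWT value for 29 of 35 members, OKO7 the lowest OKO value for 23, YKO1 the lowest YKO value for 27 and YKO4 the highest for 26. The libraries with the highest B cell level in OWT (OWT3, 208 CPM) and OKO (OKO7, 197 CPM) had the lowest level of the members in their group, and the same held for the pair YKO1 and YKO2 in YKO. This did not hold throughout, since OKO5, with the highest level of the members, had 169 CPM of B cell genes and OKO1 to OKO3 had 27.5 to 33.2. In YWT, YWT2 had the highest B cell level, at 673 CPM, and a deviation of -0.02. The summed HSC genes were also highest in OWT1 and OWT2 (6116 and 6073 CPM), beside 3902 in OWT3 and 4164 in OWT4, and were 2931 to 3898 in YKO and 2905 to 5230 in OKO. The 10 endothelial genes, among which Vwf and Tie1 made up most of the sum, had 1894 and 1466 CPM in OWT1 and OWT2 and 545 to 1407 in the other libraries. The B cell level was 64.1 to 208 CPM in OWT beside 220 to 673 in YWT, and 27.5 to 197 in OKO beside 196 to 1515 in YKO. The covariate given above thus nearly follows age and cannot separate B cells from it. The part of B cells in the members' level was not tested otherwise, and that of the other lists was not tested.

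**Figure D3:**
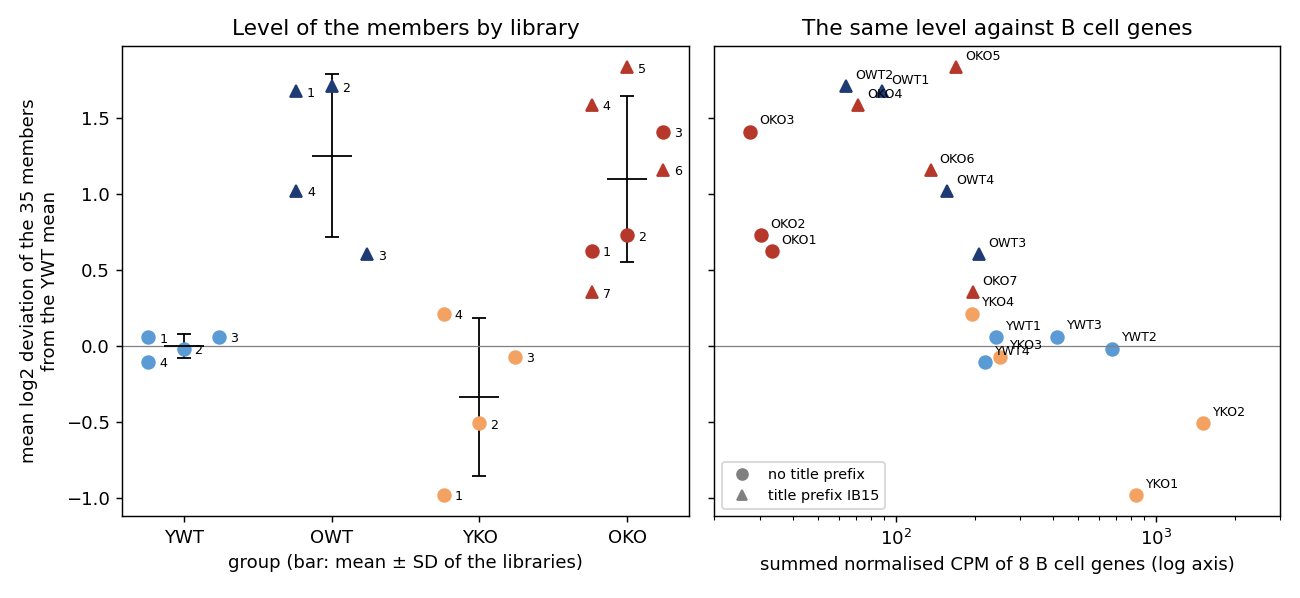
Mean log2 deviation of the 35 members from the YWT mean in each library, by group with the mean and SD (left) and against the summed normalised CPM of 8 B cell genes on a log axis (right), with triangles for the title prefix IB15. The old libraries lie between 0.35 and 1.84 and the young ones between -0.98 and 0.21, and OKO1 to OKO3 have the lowest B cell levels, 27.5 to 33.2 CPM.

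The promoters of the members were looked up because many of them rose together. The set of promoter sequences used here, from RefSeq on GRCm38.p6, holds 33 entries for 27 of the 35 members, among them 12 of the 16 called. Each entry has 300 bases, 250 before the start and 50 after it. That set holds none for Clec1a, Clu, Dsg2, Enpp5, Itgb3, Jam2, Plscr2 and Sbspon. Both strands were searched. The AP-1 motif TGANTCA was in 5 of the 33 entries (15.2%) and in 7.81% of all 32851 promoters, the GATA motif (TGATAA or AGATAA) in 8 (24.2%) and 18.6%, the RUNX motif TGTGGT in 3 (9.09%) and 16.8%, the ETS motif CGGAAG in 0 and 16.9%, and the antioxidant response element TGACNNNGC in 4 (12.1%) and 12.4%. These are descriptions of short letter strings, not of sites. Of the called members, Selp and Osmr hold an AP-1 motif and Klhl4 a GATA and a RUNX motif, and these 3 are shown with those motifs in capitals, in the direction of transcription.
Selp (chr1:164115014-164115313, plus strand): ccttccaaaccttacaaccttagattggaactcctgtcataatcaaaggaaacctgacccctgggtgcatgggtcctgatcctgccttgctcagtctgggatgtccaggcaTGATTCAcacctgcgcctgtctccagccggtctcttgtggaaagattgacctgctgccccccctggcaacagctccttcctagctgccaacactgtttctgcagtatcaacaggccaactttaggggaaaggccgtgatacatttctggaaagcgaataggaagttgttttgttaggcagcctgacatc
Osmr (chr15:6874264-6874563, minus strand): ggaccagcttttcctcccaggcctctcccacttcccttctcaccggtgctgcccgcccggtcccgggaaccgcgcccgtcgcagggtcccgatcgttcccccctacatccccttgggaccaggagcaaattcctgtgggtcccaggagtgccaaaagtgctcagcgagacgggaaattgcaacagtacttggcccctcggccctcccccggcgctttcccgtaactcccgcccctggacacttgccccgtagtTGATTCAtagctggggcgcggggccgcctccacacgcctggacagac
Klhl4 (chrX:114474083-114474382, plus strand): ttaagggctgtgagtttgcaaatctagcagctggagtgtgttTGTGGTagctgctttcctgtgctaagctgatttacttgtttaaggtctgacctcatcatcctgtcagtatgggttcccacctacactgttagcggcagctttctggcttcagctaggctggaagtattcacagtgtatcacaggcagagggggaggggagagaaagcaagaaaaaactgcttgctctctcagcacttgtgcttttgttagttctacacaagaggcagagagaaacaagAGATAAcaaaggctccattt

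The 2 metallothionein genes are shown because they are the members whose promoters are best known and the lowest in fold change of all members in OKO vs YKO. Metallothioneins are small proteins that bind zinc and copper, and zinc switches their genes on through the factor MTF1, which binds metal response elements. The string TGCNCNC, in capitals here, is a loose form of their core, found in 51.0% of all promoters, and its matches are not shown to be sites. It occurs 3 times in Mt1 and 6 times in Mt2, and 7.10% of all promoters hold at least 3 copies and 0.225% at least 6.
Mt1 (chr8:94178839-94179138, plus strand): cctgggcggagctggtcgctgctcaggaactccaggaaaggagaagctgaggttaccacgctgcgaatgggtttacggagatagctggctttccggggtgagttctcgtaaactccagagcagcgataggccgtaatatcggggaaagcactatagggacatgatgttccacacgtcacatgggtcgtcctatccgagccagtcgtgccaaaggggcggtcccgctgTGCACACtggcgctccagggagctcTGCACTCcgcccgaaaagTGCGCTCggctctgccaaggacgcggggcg
Mt2 (chr8:94172368-94172667, plus strand): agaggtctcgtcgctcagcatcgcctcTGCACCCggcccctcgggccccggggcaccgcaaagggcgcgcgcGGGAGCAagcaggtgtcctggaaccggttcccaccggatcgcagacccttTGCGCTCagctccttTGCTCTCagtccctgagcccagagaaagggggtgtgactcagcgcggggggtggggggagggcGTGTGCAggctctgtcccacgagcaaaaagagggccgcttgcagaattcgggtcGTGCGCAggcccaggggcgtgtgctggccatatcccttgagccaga

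The members fall into adhesion and matrix proteins (11), receptors and signalling proteins (10), stress and detoxification proteins (7) and other, mostly membrane, proteins (7). In OKO vs YKO, 5 of 11, 5 of 10, 2 of 7 and 4 of 7 of them rose, beside 0.597% of all tested genes. In OWT vs YWT 0, 0, 0 and 1 did, beside 0.00297%. The median log2 fold changes in OWT vs YWT were 1.35, 1.30, 1.02 and 1.37, and in OKO vs YKO 1.77, 1.35, 0.58 and 1.37. Values below are normalised CPM, given in the order of replicates 1 to 4 for YWT, OWT and YKO and as the lowest, the median and the highest of the 7 OKO libraries. They are given for the 16 members called and for those of the 6 highest mean CPM, 20 members in all, and also for Sbspon, Mt1 and Mt2, which were chosen after their values were seen. Adjusted p-values are those of edgeR.

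Of the adhesion and matrix group, Selp (P-selectin, ENSMUSG00000026580.16, chr1:164115264-164150026 of mm10, one of the promoters with an AP-1 motif), which tethers platelets and endothelium to leukocytes, stood at 141, 148, 95.2 and 84.3 in YWT and 590.2, 547, 180.4 and 266 in OWT, and at 76.1, 88.5, 124 and 165 in YKO and 184, 284 and 789.6 in OKO. All old libraries were above all young ones. Its log2 fold change was 1.76 ± 0.44 (SE, adjusted p = 0.3) in OWT vs YWT and 1.77 ± 0.41 (adjusted p = 0.0332) in OKO vs YKO. Muc1 (ENSMUSG00000042784.9, chr3:89229057-89233381), a transmembrane mucin, was at 2.05, 2.92, 3.55 and 1.97 in YWT and 28.03, 52.4, 9.90 and 9.99 in OWT, and at 0.958, 1.26, 3.46 and 4.51 in YKO and 5.71, 16.1 and 131 in OKO. It too kept all old libraries above all young ones, with log2 fold changes of 3.26 ± 0.82 (adjusted p = 0.298) and 4.07 ± 0.82 (adjusted p = 0.0141). Its highest OKO value was in OKO5 and its lowest in OKO2.

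Jam2, a junctional adhesion molecule, was at 38.1, 27.9, 27.1 and 36.4 in YWT, 138, 124, 54.1 and 71.8 in OWT, 9.63, 21.8, 25.3 and 38.1 in YKO and 46.04, 78.2 and 179.8 in OKO. The old libraries were above the young without overlap, and the rise of 2.02 ± 0.41 in OKO vs YKO passed (adjusted p = 0.0161). Alcam, an adhesion molecule of the immunoglobulin family, was at 19.4, 38.3, 38.6 and 31.02 in YWT, 97.2, 136, 44.02 and 48.4 in OWT, 19, 27.2, 28.3 and 23.9 in YKO and 28.4, 92.9 and 182 in OKO. OKO7 (28.4 CPM) lay just above YKO3 (28.3) and below YWT2, YWT3 and YWT4, and the log2 fold change in OKO vs YKO was 1.93 ± 0.43 (adjusted p = 0.0278). Clec1a, a C-type lectin receptor, was at 53.6, 69.1, 64.7 and 35.6 in YWT, 159, 144, 107 and 118 in OWT, 10.9, 17.7, 36.5 and 37.9 in YKO and 39.1, 81.3 and 138 in OKO, a rise of 1.79 ± 0.34 (adjusted p = 0.0105) in OKO vs YKO. Here the libraries labelled YKO were the low ones, with YKO1 and YKO2 far under each YWT library.

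Mmrn1 and Itgb3 behaved otherwise. Mmrn1 (multimerin 1, chr6:60924976-60989378), a large platelet and endothelial matrix protein, had the highest CPM of all members, at 590.4, 559.5, 680 and 413 in YWT, 702, 472, 533 and 555 in OWT, 243, 250.2, 403 and 502 in YKO and 226, 424 and 609 in OKO. Its groups overlapped in both age comparisons, with log2 fold changes of 0.01 ± 0.29 (95% interval -0.60 to 0.62) and 0.25 ± 0.26 (-0.29 to 0.80), and the sign of the first turns with the scaling. Itgb3, the beta-3 integrin of platelets, stood at 134, 112, 169 and 234 in YWT, 249, 425, 118 and 155 in OWT, 90.9, 148, 113 and 199.8 in YKO and 112, 189 and 824 in OKO. Both old groups held libraries at the young level and others far above it, and neither rise passed (adjusted p = 1 and 0.175). Dsg2, a desmosomal cadherin, Tm4sf1, a membrane protein of 4 passes, and Matn4, a matrilin of the matrix, had log2 fold changes of 0.89, 1.58 and 1.20 in OWT vs YWT and 1.08, 1.36 and 0.47 in OKO vs YKO, none called.

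Sbspon, a somatomedin B and thrombospondin domain protein of the matrix (chr1:15853862-15892722), is the 1 member whose level followed the title prefix in all libraries. It was at 6.79, 7.43, 9.05 and 5.20 in YWT, 90.2, 69.7, 19.8 and 53.5 in OWT and 0.958, 4.44, 5.84 and 10.99 in YKO, and at 3.22, 2.86, 3.70, 61.5, 60.6, 44.8 and 17.1 in OKO1 to OKO7. OKO1 to OKO3, without the prefix, were at the level of young HSCs, and the 4 OKO libraries with it were between 17.1 and 61.5 CPM. Only 15 of the 33690 tested genes (0.0445%) had all IB15 libraries above all others. The log2 fold change was 3.03 ± 0.87 (adjusted p = 0.462) in OWT vs YWT and 2.30 ± 0.79 (adjusted p = 0.153) in OKO vs YKO, with the 3 OKO libraries without the prefix the second was -0.72, and with the prefix as a covariate both were -0.78. Only OKO holds libraries with and without the prefix, so that covariate carries the difference within OKO over to WT. Exons of Gm37509, a transcript annotated on the opposite strand, cover 72.8% of those of Sbspon, and with a kit that does not mark strand their reads cannot be told apart.

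Among receptors and signalling proteins, Osmr (oncostatin M receptor, ENSMUSG00000022146.12, chr15:6813577-6874969) was expressed at a low level, at 5.20, 2.12, 4.97 and 6.49 in YWT, 19.96, 20.9, 8.18 and 9.06 in OWT, 2.18, 3.31, 3.11 and 4.34 in YKO and 7.56, 20.5 and 44.9 in OKO. All old libraries were above all young ones, with log2 fold changes of 1.63 ± 0.46 (adjusted p = 0.437) and 2.82 ± 0.45 (adjusted p = 0.00228). Gpr183, the receptor for oxysterols that guides B cells and other leukocytes, was at 8.30, 12.2, 12.5 and 10 in YWT, 75.6, 145, 20.3 and 38.5 in OWT, 13.7, 23.6, 13.2 and 10.6 in YKO and 20.5, 63.7 and 192 in OKO. YKO2 (23.6 CPM), the library with the highest B cell level, was above OWT3 and OKO7, and the log2 fold change in OKO vs YKO was 2.48 ± 0.56 (adjusted p = 0.0275). Trpc1, a cation channel, was at 6.18, 5.16, 3.28 and 4.79 in YWT, 16.9, 11.4, 9.61 and 11.2 in OWT, 0.852, 2.09, 3.56 and 3.70 in YKO and 5.59, 11.2 and 14.02 in OKO, a rise of 2.08 ± 0.34 (adjusted p = 0.00307) in OKO vs YKO. OKO7 alone among the old libraries fell within the range of YWT.

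Wwtr1 (TAZ), the transcriptional partner that the Hippo kinases hold in check, was at 19.1, 21.5, 18 and 18 in YWT, 63.3, 50.5, 35.9 and 36.4 in OWT, 9.26, 12.4, 19.5 and 18.2 in YKO and 19.5, 37.8 and 60.1 in OKO. OKO7 stood only just above YKO3, both at 19.5 CPM, and the rise in OKO vs YKO was 1.38 ± 0.28 (adjusted p = 0.0162). Ptprk, a receptor tyrosine phosphatase, was at 13.1, 15.2, 10.4 and 12.8 in YWT, 44.2, 34.5, 18.7 and 31 in OWT, 5.59, 10.8, 10.2 and 15.5 in YKO and 11.8, 33.6 and 51.4 in OKO, and rose by 1.77 ± 0.34 (adjusted p = 0.0112) in OKO vs YKO with OKO7 within the YKO range. The other 5 were not called. Neo1 (a netrin and repulsive guidance receptor) and Ghr (growth hormone receptor) had log2 fold changes of 1.31 and 0.75 in OWT vs YWT and 1.31 and 1.16 in OKO vs YKO (adjusted p = 0.0803 and 0.0729). Fhl1, a LIM-domain protein, Cd38, an ectoenzyme that consumes NAD, and Fyb, an adaptor of immune receptors, lay between 0.43 and 0.82 in the first and between 0.19 and 0.66 in the second.

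In the stress and detoxification group, Sult1a1 (a phenol sulfotransferase, ENSMUSG00000030711.16, chr7:126672865-126676432) was at 94.99, 95.9, 119 and 149 in YWT and 484, 334, 211 and 285 in OWT, and at 42, 43.4, 75.4 and 85.02 in YKO and 175, 382 and 739.8 in OKO. The groups ran in the order YKO, YWT and then the old groups with no overlap between any of these 3 levels. Its log2 fold change was 1.52 ± 0.41 (adjusted p = 0.391) in OWT vs YWT and 2.66 ± 0.40 (adjusted p = 0.00147) in OKO vs YKO. Nupr1, a small stress-induced nuclear protein, was at 44.5, 43.95, 63.1 and 81.5 in YWT, 174, 189.6, 95.6 and 117 in OWT, 23.6, 30.2, 39.5 and 54.5 in YKO and 88.03, 138 and 269 in OKO. The old libraries were all above the young, at 1.31 ± 0.35 (adjusted p = 0.371) and 2.18 ± 0.33 (adjusted p = 0.00148).

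Clu (clusterin), a secreted chaperone, was at 112, 91.04, 101 and 113 in YWT, 394, 346, 98.8 and 171 in OWT, 29.9, 53.9, 104 and 179 in YKO and 98.7, 207 and 379 in OKO. OWT3 lay inside the YWT range and YKO spread from 29.9 to 179 CPM. The log2 fold changes of 1.28 ± 0.48 and 1.12 ± 0.44 did not pass (adjusted p = 0.941 and 0.21). Aldh1a1, which makes retinoic acid from retinal, was at 228, 201, 215 and 171 in YWT, 369, 444, 237 and 301 in OWT, 183, 125, 227 and 257 in YKO and 168, 256 and 368 in OKO. Its OWT libraries were all above YWT, while OKO and YKO overlapped, with log2 fold changes of 0.73 ± 0.27 and 0.43 ± 0.25 (adjusted p = 0.937 and 0.4). Gstm2, a glutathione transferase, had 1.02 ± 0.55 and 0.58 ± 0.49.

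Mt1, whose promoter is printed with the matches to TGCNCNC, was at 203, 179, 75.7 and 66.8 in YWT, 178, 142, 247 and 195 in OWT, 189, 103, 214 and 235 in YKO and 54.1, 138 and 329.5 in OKO. Mt2 was at 53.3, 43.7, 16.8 and 12.1 in YWT, 46.7, 28.9, 82.4 and 53.6 in OWT, 46.1, 22.4, 47.8 and 54.3 in YKO and 13.8, 25.4 and 108 in OKO. In both genes YWT1 and YWT2 stood far above YWT3 and YWT4, all groups overlapped, and OKO7, the lowest OKO library for 23 of the 35 members, was the highest of all 19. The log2 fold changes were 0.54 ± 0.43 and 0.75 ± 0.54 in OWT vs YWT, and -0.22 ± 0.38 (95% interval -1.01 to 0.57) and 0.11 ± 0.47 (-0.88 to 1.09) in OKO vs YKO. Exons of Gm45774 on the opposite strand cover 73.5% of those of Mt2.

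Of the other members, Plscr2 (a phospholipid scramblase of the membrane, ENSMUSG00000032372.14, chr9:92275602-92297752) was the 1 member called in both age comparisons, at 19.3, 14.6, 20.9 and 30.6 in YWT, 128, 118, 102 and 92.1 in OWT, 9.58, 11.7, 18.9 and 21.9 in YKO and 41.3, 111 and 154 in OKO. The lowest old library, OKO1 at 41.3 CPM, was above the highest young one, YWT4 at 30.6. The log2 fold change in OKO vs YKO was 2.75 ± 0.33 (adjusted p = 0.000106), and it was called under all 33 alternatives, where it ranged from 2.30 to 3.03. In OWT vs YWT it was 2.37 ± 0.34 (adjusted p = 0.0216), and the call was lost with the title prefix as a covariate (1.66, adjusted p = 0.165, in a range of 2.84e-08 to 0.165 over the 31 alternatives) and without any 1 of the YWT and OWT libraries other than YWT4. The prefix covariate rests on the OKO libraries alone, since all OWT and no YWT libraries have the prefix.

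Tmem215 (ENSMUSG00000046593.3, chr4:40472180-40477168), a membrane protein of the endoplasmic reticulum, had the largest fold change of the members in OKO vs YKO, 4.62 ± 0.77 (adjusted p = 0.00324). It was at 1.60, 1.88, 1.59 and 4.23 in YWT, 8.86, 46.9, 9.92 and 13.8 in OWT, 0.958, 3.01, 1.75 and 1.68 in YKO and 11.9, 25.4 and 163 in OKO, with all old libraries above all young ones. Enpp5, of the ectonucleotide pyrophosphatase family, was at 92.1, 87.5, 83.9 and 85.4 in YWT, 237, 321, 138 and 207 in OWT, 68.7, 61.98, 82.4 and 121 in YKO and 133, 216 and 328 in OKO. Its rises of 1.37 ± 0.30 (adjusted p = 0.195) and 1.37 ± 0.28 (adjusted p = 0.0157) were of the same size, and the old libraries stood apart from the young. Klhl4, a kelch-domain protein encoded on the X chromosome, was at 40.9, 40.2, 56.1 and 38.3 in YWT, 89.8, 85, 49.7 and 58.96 in OWT, 21.4, 24.5, 30.4 and 35.9 in YKO and 35.1, 78.8 and 131 in OKO. It rose by 1.56 ± 0.29 (adjusted p = 0.00956) in OKO vs YKO, where OKO7 overlapped YKO4, and had 0.69 ± 0.31 in OWT vs YWT. Ehd3, of endocytic recycling, Cavin2, of caveolae, and Zswim5, a zinc finger protein, had log2 fold changes of 1.39, 0.73 and 1.27 in OWT vs YWT and 1.25, 0.76 and 1.02 in OKO vs YKO, with no call.

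**Figure D4:**
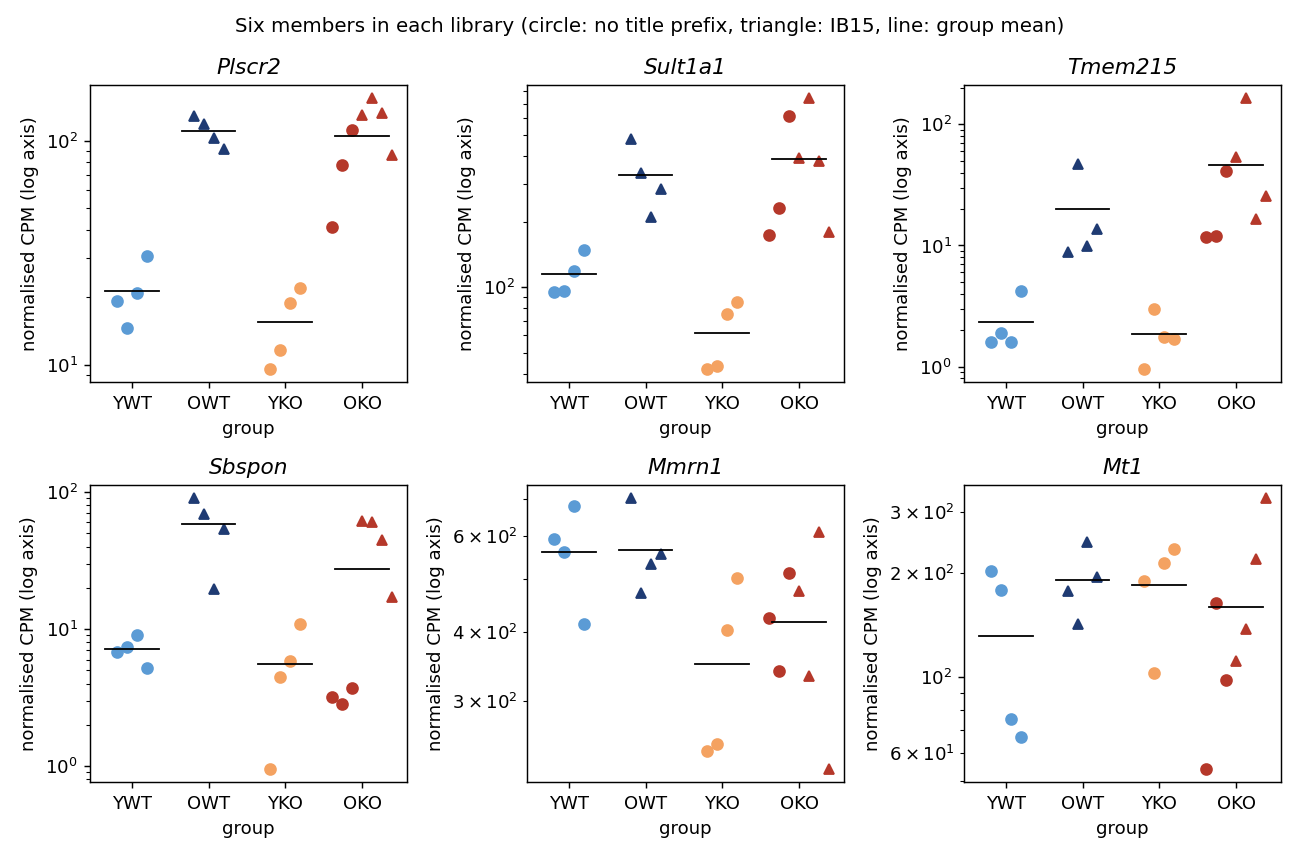
Normalised CPM on log axes of 6 members in each of the 19 libraries, by group, with circles for libraries without the title prefix, triangles for IB15 and a line at the group mean. Plscr2, Sult1a1 and Tmem215 have all old libraries above all young, Sbspon splits OKO by the prefix (2.86 to 3.70 against 17.1 to 61.5 CPM), and the groups overlap in Mmrn1 and Mt1.

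In all, 9 members had every old library of both genotypes above every young one (Selp, Nupr1, Plscr2, Muc1, Tmem215, Jam2, Enpp5, Sult1a1 and Osmr), which held for 48 of the 33690 tested genes (0.142%). Compared per length of exon, as CPM per kilobase, the members ranged in YWT from 105 (Mt1), 95.6 (Mmrn1) and 76.1 (Sult1a1) down to 0.491 (Tmem215) and 0.388 (Osmr). In OWT Sult1a1 had the highest level per kilobase of all members by these lengths, at 218, and Plscr2 had 34.7, beside 6.71 in YWT. The length was that of all annotated exons of a gene joined together. For Mt1 it was 1246 bases, the whole gene from start to end, so the place of Mt1 in the order depends on this length.

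In the comparison of young KO with young WT HSCs, the members did not show the rise of the old groups. By edgeR 0 members were called and by DESeq2 0, while 0.0267% of all tested genes were. Of the 35 members, 27 had a lower and 8 a higher mean in the libraries labelled YKO than in YWT, with a median log2 fold change of -0.29, beside -0.02 for all genes. At an unadjusted p under 0.05, 4 members were lower (2.68% of all genes) and 0 higher by edgeR. DESeq2 gave 4 members in either direction, beside 2370 of 52612 genes. The 4 by edgeR were Clec1a (-1.11 ± 0.36, adjusted p = 0.681), Trpc1 (-0.91 ± 0.36, adjusted p = 0.905), Sult1a1 (-0.90 ± 0.40, adjusted p = 1) and Mmrn1 (-0.68 ± 0.30, adjusted p = 0.99). All 4 libraries labelled YKO were below all of YWT for 2 members, Sult1a1 and Klhl4 (3.01% of all genes). Of the members that rose in OKO vs YKO, Plscr2 had a YKO mean of 15.5 ± 5.84 CPM (SD, n = 4) and a YWT mean of 21.3 ± 6.71 (95% interval of the log2 difference -1.14 to 0.22), and Muc1 one of 2.55 ± 1.72 and 2.62 ± 0.752 (-1.60 to 1.56).

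YKO1 and YKO2 had the lowest mean deviation of the members in YKO (-0.98 and -0.51, beside -0.07 and 0.21 in YKO3 and YKO4). Both were picked after the data were seen. A fit without them favours a higher median in YKO vs YWT and cannot tell why it was low. Without both, the median log2 fold change in YKO vs YWT was -0.03, beside -0.23 for all genes, 16 of 35 members were higher and 0 had an unadjusted p under 0.05. With the B cell level as a covariate the median was -0.24, beside 0.01 for all genes. The erythroid list (globins, Alas2 and others) was also high in YKO, at a summed 1609 to 4693 CPM beside 661 to 2030 in YWT, and it fell again in OKO vs YKO. In YKO1 to YKO4 the erythroid sum was 4053, 1609, 4618 and 4693 CPM. The part of erythroid cells in the lower levels was not tested, and that of B cells only with the covariate.

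In old HSCs the genotypes did not differ detectably in any member. In OKO vs OWT 0 of 35 members were called by edgeR (0.0327% of all genes) and 0 by DESeq2 (0.194%). An unadjusted p under 0.05 was found for 0 members by edgeR (8.14% of all genes) and 1 by DESeq2 (5902 of 52612 genes). The median log2 fold change of the members was -0.13, beside 0.12 for all genes, and its sign turned with the scaling, to 0.10 with upper-quartile normalization, beside 0.36 for all genes. For Plscr2 the 95% interval of the log2 difference ran from -0.68 to 0.52, and for Sult1a1 from -0.50 to 0.98. With the 4 OKO libraries of the prefix IB15, which OWT also has, 0 members were called and the median was 0.06, with 19 of 35 higher. The widest differences were Tmem215 (1.22 ± 0.63) and Sbspon (-1.07 ± 0.69).

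A further 15 genes that have been reported in aged HSCs were described in the same way. In OWT vs YWT 14 of 15 were higher, 0 were called and the median log2 fold change was 1.00. In OKO vs YKO 13 were higher, 6 rose by the test, beside 0.597% of all tested genes, and the median was 1.30. The 6 were Ramp2 (2.68), Rorb (2.61), Clca3a1 (2.09), Gda (1.86), Runx1t1 (1.62) and Cpne8 (1.28). Vwf, which marks platelet-biased HSCs, had 0.87 ± 0.38 in OWT vs YWT and 0.26 ± 0.33 in OKO vs YKO, and Slamf1, which encodes the CD150 used in the sort, 0.87 ± 0.28 and 0.52 ± 0.25. In YKO vs YWT 4 of the 15 were higher, with a median of -0.36.

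Of the other lists, the 9 granulocyte genes were all higher in OWT vs YWT, with a median log2 fold change of 1.74 and 0 called, and had a median of -0.01 in OKO vs YKO, where Prtn3, a neutrophil protease, rose (2.47 ± 0.34, adjusted p = 0.000604). The 13 HSC genes were all higher in OWT vs YWT too, and had medians of 0.48 in OWT vs YWT and 0.47 in OKO vs YKO with 0 called in either, and the 12 platelet and megakaryocyte genes 0.12 and -0.58 with 0 called. Of the 10 endothelial genes 2 fell in OKO vs YKO and 0 rose, and of 8 stromal genes 0 were called in either. The B cell genes had medians of -2.38 in OWT vs YWT, with 0 called, and -3.14 in OKO vs YKO, where 6 of 8 fell. The erythroid genes had -1.39 with 0 called and -3.49 with 5 of 8 fallen. Of all 33690 tested genes, 201 rose and 233 fell in OKO vs YKO, and 1 rose and 0 fell in OWT vs YWT.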

How the data were processed

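HSC RNA was made into libraries with the SMART-Seq v4 Ultra Low Input kit, which does not mark strand. The authors trimmed the reads with Trim Galore 0.4.3 and cutadapt, aligned them with STAR to mm10 and deposited featureCounts read counts per gene for each of the 19 libraries, and the strand and mate settings are not given in the sources used here. Reads of genes with overlapping exons therefore cannot be assigned with certainty. Groups and replicate numbers were taken from the labels. Samples of the methylation assay were not analysed here. Depth was 22197555 to 77970627 counts per library.

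All 55376 genes of the deposited counts entered edgeR 4.0.16 in R 4.3.3, with filterByExpr (33690 genes left), TMM scaling, 1 mean per group over all 19 libraries, glmQLFit and glmQLFTest. P-values are two-sided and Benjamini-Hochberg adjusted over all 33690 genes, a call was made at an adjusted p below 0.05 together with more than 1.5-fold change (for the interaction the adjusted p alone), intervals are at 95% and CPM are TMM-scaled. Members given in every library were those called in any comparison, those of the 6 highest mean CPM and those whose groups did not overlap in both age comparisons. The members and lists were chosen with earlier results of these data known. DESeq2 1.42.0 and other scalings, filters, sample sets and covariates (for B cells the log2 of their summed CPM) were run as alternatives, and the steps were tested on simulated counts. Promoter sequences are those of RefSeq on GRCm38.p6, and gene positions those of GENCODE M21.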

Additional observations from a re-analysis of the deposited data

Results flagged for a closer look

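In 7 of 140 groups of a member's values, 1 library stood apart from the rest by Dixon's test at the 95% level, where chance alone gives about 1 in 20. In YWT these were Tmem215 in YWT4 (4.23 CPM, above the others), Zswim5 in YWT2 (3.21 CPM, below them), and Matn4 and Klhl4 in YWT3 (36.1 and 56.1 CPM, both above). In OKO the 3 were all in OKO7 and all low, with 11.2 CPM for Gstm2, 5.59 for Trpc1 and 11.8 for Ptprk. OKO7 also had the highest B cell level of the OKO libraries. Without it 22 members were called in OKO vs YKO, beside 16 with it, with 5.47% of all genes called in either direction.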

How the results depend on the processing

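In OWT vs YWT, 1 member was called. The shares of all genes in this section are in either direction. DESeq2 called 12 (0.251% of all genes), the fit of only the groups compared 6 (0.158%) and the title prefix as a covariate 0, and leaving out 1 library gave 0 to 1, with 0 without YWT1, YWT2, YWT3 or any OWT library. In OKO vs YKO, 16 were called. DESeq2 called 26 (4.04% of all genes) and a mean CPM of at least 5 called 28 (12.1%, beside 1.29% in either direction in the fit as reported). The fit of only the groups compared called 6 (0.377%), the B cell level as a covariate 3 (0.386%) and the fit without YKO1 and YKO2 1 (0.0542%). Leaving out 1 library gave 7 (without YKO1, 0.284%) to 22 (without OKO7, 5.47%), and 10 without YKO2 (0.635%). In the other 3 comparisons 0 members were called under every alternative run. Of the log2 fold changes of single members in the age comparisons, and of the 4 members with an unadjusted p under 0.05 in YKO vs YWT, 33 turned sign, 73 lost and 74 gained their call, and 2184 did neither. In OWT vs YWT, the prefix as a covariate gave -0.38 for Mt1, -0.78 for Sbspon and -0.037 for Itgb3, and the B cell level as a covariate -0.0095 for Gstm2 and -0.24 for Mmrn1. Mmrn1 there had -0.011 with DESeq2, -0.023 with upper-quartile scaling and -0.026 at a mean CPM of at least 5, and from -0.11 (without YWT4) to 0.13 (without YWT3) with 1 library left out, below 0 also without OWT1 or OKO1. In OKO vs YKO, the prefix as a covariate gave -0.012 for Aldh1a1, -0.27 for Mt2 and -0.78 for Sbspon, and the OKO libraries without the prefix alone -0.21 for Mt2 and -0.72 for Sbspon. The B cell covariate gave 0.22 for Mt1, -0.47 for Gstm2, -0.31 for Fyb, -0.14 for Mmrn1 and -0.89 for Matn4. Without YKO1 and YKO2 there were -0.14 for Mt2, -0.14 for Gstm2, -0.093 for Mmrn1 and -0.21 for Matn4, and with the 4 IB15 libraries of OKO alone 0.12 for Mt1, -0.0099 for Fyb and -0.020 for Matn4. Mt2 had from -0.26 (without OKO7) to 0.28 (without YKO4) with 1 library left out, below 0 also without YKO2 or OKO2, and -0.41 with Y-linked counts as a covariate. The B cell and Y-linked covariates, the fit without YKO1 and YKO2 and that of the IB15 libraries of OKO were added after the data were seen. The prefix covariate was estimated within OKO alone and carried over to WT. The causes were not tested, and fitting fewer samples leaves fewer degrees of freedom.

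Nothing in the labels says that the replicate numbers pair the samples, and the correlations below cannot settle it. Of 16 correlations between the deviations of same-numbered libraries, from -0.47 to 0.30, 4 were over 0.1. With the replicate block, 1 member was called in OWT vs YWT, 18 in OKO vs YKO (5.27% of all genes) and 0 in the other 3 comparisons, and Mt2 turned to -0.49 in OKO vs YKO.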
